A study of Mus musculus with 24 samples.

Results

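The maternal-fetal interface (MFI), the tissue made up of the maternal decidua and the fetal placenta, was compared between C1qtnf6-KO and WT mice at gd19.5, close to term. *C1qtnf6* encodes CTRP6, a secreted protein of the C1q and TNF related family. The libraries were chosen by genotype and stage alone, which gives 6 of the 24 RNA-seq libraries of the series, 3 of C1qtnf6-KO mice and 3 of WT mice, and other libraries enter only where another stage is named. KO mice were homozygous for a CRISPR-Cas9 deletion of 3 exons of *C1qtnf6* and were of strain C57BL/6JCya, WT mice were C57BL/6, and the labels name no treatment. The comparison was between homozygous mice, in tissue of both dam and fetus, so that the values do not separate a maternal from a fetal loss of the gene. The labels name no dam, litter, age or fetal sex, and do not say how many interfaces were combined in a library, and the methods of the study speak of placentae where the labels name the interface. The p-values therefore measure the spread between these libraries, which may be technical.

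At term the mouse placenta holds the labyrinth, in which fetal capillaries run beside trophoblast and maternal blood, the junctional zone of spongiotrophoblast and glycogen cells, and giant cells that secrete placental lactogens and cathepsins. Fetal vessels in the labyrinth rest on a stroma of fibroblasts, pericytes and smooth muscle that lays down collagen and basement membrane. A separate class of transcripts, the long non-coding RNAs *Malat1* and *Neat1* among them, stays in the nucleus, where it lies in or beside the bodies that store splicing factors, and many messages for splicing factors keep an intron and are held in the same place. Bulk RNA measures these cells together, so that fewer cells of a type and less RNA per cell cannot be told apart.

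The 6 libraries held between 24303850 and 30991315 counts. Markers of the labelled tissue were abundant, with *Tpbpa* of the spongiotrophoblast, *Prl3b1*, the placental lactogen II gene, and the placental cathepsin gene *Ctsj* among the 10 genes with the highest mean CPM (counts scaled to the same library size), and none of these 10 had an edgeR adjusted p-value under 0.05. One KO library stood apart in many of the lists below. KO replicate 2 had the lowest quality weight in limma voom, 0.589, and the first principal component, with 35.0% of the variance, placed it at -13.9 and KO replicate 3 at -10.7, with KO replicate 1 at 0.622 beside WT replicate 2 at 1.11. The genes that weighed most on the low side of this component were the Y-linked *Ddx3y*, *Eif2s3y*, *Uty* and *Kdm5d*. On the high side they were *C1qtnf6* and *Xist*, so that the component mixes Y-linked expression with the deleted gene. Transcripts of 4 Y-linked genes summed to 159.8 CPM in WT replicate 2 and 127 CPM in KO replicate 2, to 37.9 CPM in KO replicate 3, and to at most 1.60 CPM in the other 3 libraries. The share of counts on mitochondrial genes was 2.18% to 2.41% in WT and 1.93% to 2.12% in KO, so that all KO libraries were below all WT libraries. The part of these differences in the results below was examined only by leaving out libraries and by a covariate for the Y-linked genes.

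The comparison asks which transcripts differ with the loss of *C1qtnf6* near term. Most differences were small. Of 17397 genes tested, 20 (0.115%) had an adjusted p-value under 0.05 in the quasi-likelihood test of edgeR, 5 of them higher (0.0287%) and 15 lower in KO (0.0862%), and 4 of the 15 also passed a log2 fold change of 1. At an unadjusted p-value under 0.05 stood 2354 genes (13.5%), 1123 higher (6.46%) and 1231 lower (7.08%). Their median absolute log2 fold change was 0.34, and 69.8% of them lay under 0.5. Among the larger differences the lower side held more genes: beyond a log2 fold change of 1 stood 22 higher and 77 lower genes at that p-value. All KO libraries were above all WT libraries for 1746 genes (10.04% of those tested) and below for 1806 (10.4%), together 20.4%. The fitted change was above 0 for 48.3% of the genes tested and below 0 for 51.7%. The count of 20 depended on the libraries and the tool: it was 1 without WT replicate 1 or WT replicate 2, 3 without WT replicate 3, 6 without KO replicate 1, 16 without KO replicate 2 and 2 without KO replicate 3, and DESeq2 called 203 genes in the same libraries. Of these 203 genes 123 were higher and 80 lower, so that the excess of lower genes also depended on the tool. *C1qtnf6* passed in each of the 16 fits that gave it an adjusted p-value, while *Zkscan3* and *Lrrn4* passed in 12 of 17 and the other called genes in 8 to 11 of 17.

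*C1qtnf6* (chromosome 15, 78523346 to 78531416, minus strand, GRCm38) was counted 1625, 1828 and 1637 times in the WT libraries and 17, 25 and 1 times in the KO libraries. This was 63.0, 66.7 and 68.1 CPM in the WT libraries and 0.713, 0.826 and 0.0329 CPM in the KO libraries, a log2 ratio of KO to WT of -7.00 ± 0.32 (fitted value and its standard error, adjusted p = 2.38e-05 by edgeR). The count of 1 in KO replicate 3 lies under 3 counts, taken as the limit of detection and worth 0.0968 CPM in that library, and the other KO libraries lie above it. Of the genes within 250 kb of *C1qtnf6*, 11 others were tested and none passed. On one side lies *Il2rb*, a receptor chain for interleukin 2 and 15, with 49.6, 48.5 and 53.9 CPM in the WT libraries and 63.3, 55.3 and 60.6 CPM in the KO libraries. On the other side lies *Rac2*, a GTPase of blood cells, with a fitted log2 change of -0.09 (edgeR adjusted p = 0.894). *Tmprss6*, a membrane serine protease that lowers hepcidin, had 0.853, 1.13 and 1.41 CPM in the WT libraries and 1.43, 3.21 and 1.91 CPM in the KO libraries. For *Il2rb* and *Tmprss6* all KO libraries were above all WT libraries (log2 fold changes 0.24 and 0.96, edgeR adjusted p = 0.231 and 0.256). The same held for *Mpst* and *Kctd17*, which lie on the same side of *C1qtnf6*, beside 10.04% of all genes. In the other tested neighbours the groups overlapped. At gd10.5, gd14.5 and gd16.5 the log2 fold changes were -0.16, 0.19 and 0.32 for *Il2rb* and 0.12, 0.38 and 0.93 for *Tmprss6*.

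The 5 genes that rose in KO encode proteins of the cell surface, the Golgi and the extracellular space. *Lrrn4*, a leucine-rich repeat membrane protein used as a marker of mesothelium, had 31.9, 29.5 and 27.5 CPM in the WT libraries and 58.9, 55.3 and 48.5 CPM in the KO libraries, a log2 ratio of KO to WT of 0.87 ± 0.09 (fitted value and its standard error, adjusted p = 0.0153 by edgeR). *Chrdl1*, a secreted antagonist of bone morphogenetic proteins, had 6.52, 7.41 and 6.32 CPM in the WT libraries and 11.2, 12.8 and 11.2 CPM in the KO libraries, a log2 ratio of KO to WT of 0.80 ± 0.11 (fitted value and its standard error, adjusted p = 0.0436 by edgeR). In each of these genes the lowest KO library lay well above the highest WT library. *St8sia2*, which adds polysialic acid to cell adhesion molecules, had 14.6, 14.1 and 13.3 CPM in the WT libraries and 21.6, 24.8 and 20.2 CPM in the KO libraries, a log2 ratio of KO to WT of 0.66 ± 0.09 (fitted value and its standard error, adjusted p = 0.0436 by edgeR). *Anpep*, the aminopeptidase N of pericytes and epithelia, had 81.7, 87.8 and 93.3 CPM in the WT libraries and 139.9, 125 and 119 CPM in the KO libraries, a log2 ratio of KO to WT of 0.55 ± 0.08 (fitted value and its standard error, adjusted p = 0.0436 by edgeR). *Egfr*, the receptor of epidermal growth factor and needed for growth of the placenta in mice, had 110.0, 105 and 110.3 CPM in the WT libraries and 160.1, 149 and 139.7 CPM in the KO libraries, a log2 ratio of KO to WT of 0.46 ± 0.07 (fitted value and its standard error, adjusted p = 0.0436 by edgeR). For *Anpep* and *Egfr* the order of the KO libraries was replicate 1, 2 and 3 from high to low, so that their rise was not greatest in KO replicate 2. Of 16 mesothelial genes 12 were tested, and *Lrrn4* was the only one that passed. Summed over the list the level was 2335 to 2402 CPM in WT and 2432 to 2843 CPM in KO, while *Msln*, mesothelin, had a log2 ratio of -0.10 and *Krt18*, a keratin of many epithelia, of 0.15 (edgeR adjusted p = 0.68 and 0.506).

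**Figure D1:**
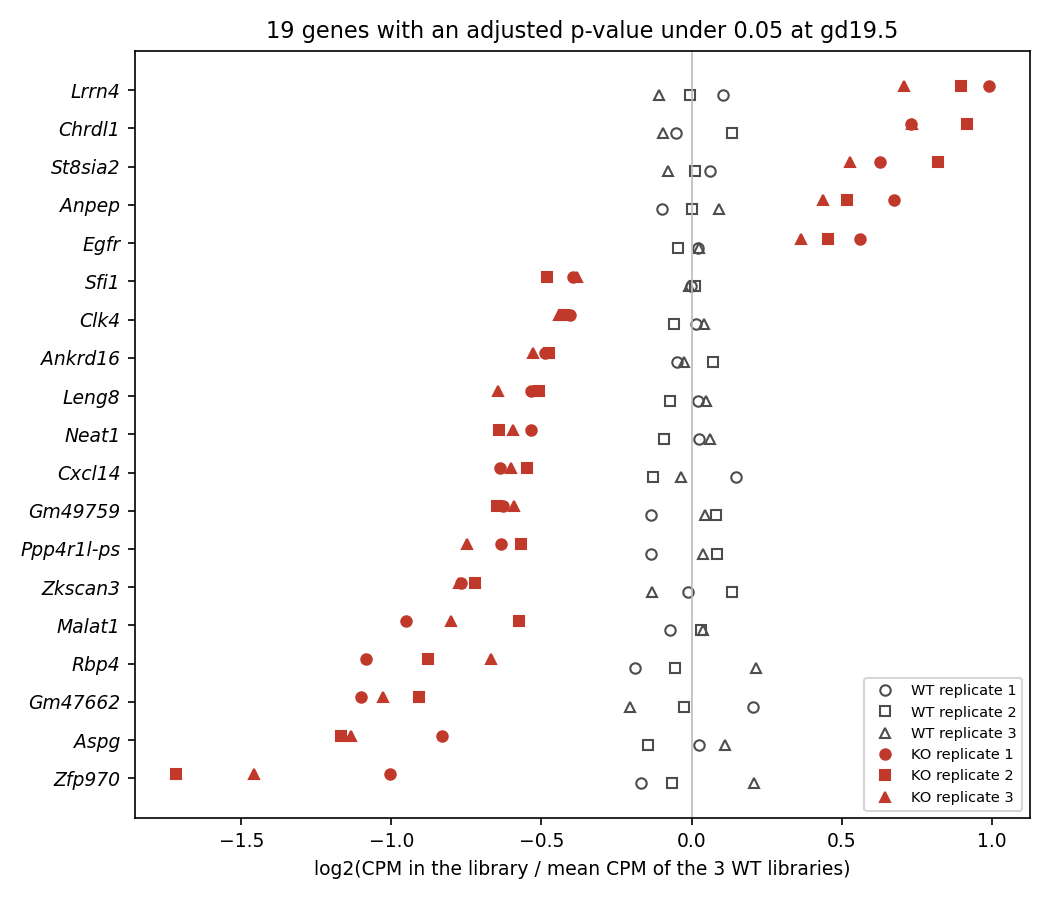
The 19 genes other than *C1qtnf6* with an edgeR adjusted p-value under 0.05, each row 1 gene, with the log2 ratio of the CPM in each library to the mean CPM of the 3 WT libraries on the horizontal axis (open grey symbols WT, filled red symbols KO, symbol shape the replicate). The 5 genes at the top have all KO libraries to the right of the WT libraries and the 14 below have them to the left, from *Sfi1* (log2 fold change -0.42) to *Zfp970* (-1.37).

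Among the 15 genes that fell, besides *C1qtnf6*, were several with known products in secretion, transport and the control of transcription. *Aspg*, an asparaginase, had 18.7, 16.6 and 19.8 CPM in the WT libraries and 10.3, 8.16 and 8.35 CPM in the KO libraries, a log2 ratio of KO to WT of -1.04 ± 0.11 (fitted value and its standard error, adjusted p = 0.0183 by edgeR). *Rbp4*, the plasma carrier of retinol, had 134, 147 and 177 CPM in the WT libraries and 71.8, 82.8 and 95.8 CPM in the KO libraries, a log2 ratio of KO to WT of -0.87 ± 0.12 (fitted value and its standard error, adjusted p = 0.0436 by edgeR). *Cxcl14*, a chemokine made by epithelium and decidua, had 38.5, 31.8 and 33.9 CPM in the WT libraries and 22.3, 23.8 and 22.9 CPM in the KO libraries, a log2 ratio of KO to WT of -0.60 ± 0.08 (fitted value and its standard error, adjusted p = 0.0436 by edgeR). The KO values of *Cxcl14* lay within 2 CPM of each other, and those of *Rbp4* spread more but stayed below the lowest WT library. *Rbp4* is also a gene of yolk sac endoderm, and the 26 genes of that list summed to 1008 to 1278 CPM in WT and 1040.0 to 1110.4 CPM in KO, with *Afp*, alpha-fetoprotein, at a fitted log2 change of -0.29 (edgeR adjusted p = 0.675). Whether yolk sac in the libraries had a part in the *Rbp4* values was not tested. *Zkscan3*, a zinc finger repressor of autophagy genes, had 77.2, 85.5 and 71.1 CPM in the WT libraries and 45.8, 47.3 and 45.5 CPM in the KO libraries, a log2 ratio of KO to WT of -0.76 ± 0.07 (fitted value and its standard error, adjusted p = 0.0153 by edgeR). It was also lower in KO at the other stages, with log2 fold changes of -0.48, -0.54 and -0.23 at gd10.5, gd14.5 and gd16.5. *Sfi1*, a centrosomal protein, had 174, 176 and 173 CPM in the WT libraries and 133, 125 and 134 CPM in the KO libraries (log2 fold change -0.42, edgeR adjusted p = 0.0436). *Ankrd16*, an ankyrin repeat protein, had 26.0, 28.3 and 26.4 CPM in the WT libraries and 19.2, 19.3 and 18.6 CPM in the KO libraries (log2 fold change -0.50, edgeR adjusted p = 0.0436). The span of *Sfi1*, introns included, shares bases with that of *Drg1* on the same strand, and any reads in exons of both genes could not be assigned.

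*Zfp970* belongs to an array of near-identical zinc finger genes on distal chromosome 2, and lies from 177464733 to 177478129 of GRCm38 on the plus strand. It had 13.2, 14.1 and 17.1 CPM in the WT libraries and 7.38, 4.49 and 5.39 CPM in the KO libraries, a log2 ratio of KO to WT of -1.37 ± 0.17 (fitted value and its standard error, adjusted p = 0.0373 by edgeR). Its neighbour *Gm14403* had 2.21, 1.97 and 2.37 CPM in the WT libraries and 1.01, 0.529 and 1.02 CPM in the KO libraries (log2 fold change -1.37, edgeR adjusted p = 0.0998). *Gm14418* had 2.52, 1.79 and 2.33 CPM in the WT libraries and 0.923, 0.859 and 0.921 CPM in the KO libraries (log2 fold change -1.29, edgeR adjusted p = 0.0663). In *Zfp970*, *Gm14403* and *Gm14418* all KO libraries were below all WT libraries. Of 47 genes of the array on a list drawn up for it, 17 were tested, 15 were lower in KO, 9 had an unadjusted p-value under 0.05 (7.08% of all genes were lower at that p-value) and none was higher at it, and the median log2 fold change was -0.27 against -0.01 for all genes tested. Reads that fit several of these genes are missing from the counts, so that a change of one member cannot be told from a change in the reads that set it apart. The stretches before the start sites of the array resemble each other closely, and 4 are printed because these genes were lower together.
Zfp970: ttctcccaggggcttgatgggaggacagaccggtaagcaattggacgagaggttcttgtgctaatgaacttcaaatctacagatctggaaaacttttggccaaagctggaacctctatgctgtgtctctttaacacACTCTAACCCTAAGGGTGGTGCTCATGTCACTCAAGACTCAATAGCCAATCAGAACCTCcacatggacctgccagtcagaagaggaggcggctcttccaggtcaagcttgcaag
Gm14403: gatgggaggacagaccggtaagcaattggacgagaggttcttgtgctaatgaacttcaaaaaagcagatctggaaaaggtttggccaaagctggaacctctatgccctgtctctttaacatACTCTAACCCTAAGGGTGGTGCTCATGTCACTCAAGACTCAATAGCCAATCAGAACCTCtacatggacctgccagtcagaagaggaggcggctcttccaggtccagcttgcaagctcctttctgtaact
Gm14322: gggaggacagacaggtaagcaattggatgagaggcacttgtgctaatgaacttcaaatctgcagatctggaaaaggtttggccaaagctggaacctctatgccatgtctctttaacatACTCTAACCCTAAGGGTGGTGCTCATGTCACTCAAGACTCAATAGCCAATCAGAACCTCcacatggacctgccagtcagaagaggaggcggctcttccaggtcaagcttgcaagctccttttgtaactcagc
Gm14325: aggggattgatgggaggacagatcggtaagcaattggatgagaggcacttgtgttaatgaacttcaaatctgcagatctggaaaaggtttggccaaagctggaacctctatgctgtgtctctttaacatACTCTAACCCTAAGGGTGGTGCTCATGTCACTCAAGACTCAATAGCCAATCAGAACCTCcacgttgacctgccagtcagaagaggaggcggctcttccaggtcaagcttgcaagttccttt
Each is the 250 bases before the RefSeq start site, read 5′ to 3′ on the strand of the gene (GRCm38.p6, chr2:177464492-177464741 plus strand, chr2:177497976-177498225 plus strand, chr2:177759038-177759287 plus strand, chr2:177840337-177840586 minus strand). Capitals mark the longest run that the windows of the 6 lower members have in common, 59 bases long, and it contains the letters CCAAT, a motif of many promoters. Of the 17 tested members 11 had a window in RefSeq, and in pairwise local alignment these 11 were 78.3% to 99.2% identical, with a median of 95.3%. The run was taken from those 6 windows, so its presence there is no finding. CCAAT, searched on both strands, stood in all 11 and in 33.8% of all 32851 windows of this length. Within the printed set the log2 fold changes ran from -1.37 and -1.37 to -0.67 for *Gm14322* and -0.27 for *Gm14325* (edgeR adjusted p = 0.266 and 0.346 for the last 2), so that genes with the same run differed in the size of the difference.

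RNAs of the nucleus were lower in KO. *Malat1* had 372, 400.1 and 402 CPM in the WT libraries and 202, 263 and 225 CPM in the KO libraries, a log2 ratio of KO to WT of -0.77 ± 0.10 (fitted value and its standard error, adjusted p = 0.0372 by edgeR). *Neat1*, the scaffold of paraspeckles, had 213, 197 and 219 CPM in the WT libraries and 145, 134 and 139 CPM in the KO libraries, a log2 ratio of KO to WT of -0.59 ± 0.07 (fitted value and its standard error, adjusted p = 0.0183 by edgeR). *Clk4*, a kinase of splicing factors whose own message is kept in the nucleus with introns, had 89.1, 84.5 and 90.6 CPM in the WT libraries and 66.5, 65.7 and 64.8 CPM in the KO libraries, a log2 ratio of KO to WT of -0.42 ± 0.06 (fitted value and its standard error, adjusted p = 0.0436 by edgeR). In each of the 3 the highest KO library lay under the lowest WT library, and the KO libraries of *Neat1* and *Clk4* were closer to each other than those of *Malat1*. *Leng8*, a gene linked to the handling of RNA in the nucleus, had 96.7, 90.9 and 98.6 CPM in the WT libraries and 65.8, 67.1 and 61.0 CPM in the KO libraries, a log2 ratio of KO to WT of -0.56 ± 0.06 (fitted value and its standard error, adjusted p = 0.0183 by edgeR). The transcribed pseudogene *Ppp4r1l-ps*, the lincRNA *Gm47662* and *Gm49759*, an unclassified transcript inside *Pkm*, fell by 0.65, 1.01 and 0.62 on the log2 scale (edgeR adjusted p = 0.0436, 0.0473 and 0.0436). *Clk4* and *Leng8* overlap genes on the opposite strand, *BC049762* and *Leng9*, and the counting ignored strand, so that reads of shared exons could not be assigned.

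A list of 40 nuclear-retained RNAs and messages of splicing bodies, drawn up with earlier results known, lay in the same direction. Of its 39 tested members 37 were lower, 25 had an unadjusted p-value under 0.05 (7.08% of all genes were lower at it), none was higher at that p-value, and 29 had all KO libraries below all WT libraries, where 10.4% of all genes did. The 3 that passed after adjustment were *Malat1*, *Neat1* and *Clk4*. The median log2 fold change was -0.26, and the median difference from the WT mean was -0.03, -0.01 and 0.04 in the WT libraries and -0.16, -0.23 and -0.33 in the KO libraries. *Meg3*, a maternally expressed non-coding RNA, had 198, 203 and 189 CPM in the WT libraries and 144, 156 and 122 CPM in the KO libraries (log2 fold change -0.48, edgeR adjusted p = 0.105). *Kcnq1ot1*, which silences imprinted neighbours, had 27.0, 28.4 and 31.6 CPM in the WT libraries and 19.8, 21.8 and 18.1 CPM in the KO libraries (log2 fold change -0.54, edgeR adjusted p = 0.0768). The splicing factor gene *Srsf5* had a log2 fold change of -0.28 and *Luc7l2* of -0.35 (edgeR adjusted p = 0.127 and 0.118), and these genes were chosen after their values were seen. Without KO replicate 2 the median was -0.23, with 24 members lower at an unadjusted p-value under 0.05, beside 5.95% of all genes in that fit.

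Whole classes of the annotation lay in the same direction. Protein-coding genes had a median log2 fold change of 0.01 (n = 14427), lincRNA genes of -0.18 (n = 514), antisense genes of -0.29 (n = 468), processed transcripts of -0.22 (n = 264) and TEC genes, transcript models still awaiting experimental proof, of -0.35 (n = 294). Of these 1540 non-coding genes, 1203 (78.1%) were lower in KO, against 47.8% of the protein-coding genes. All KO libraries were below all WT libraries for 362 of them (23.5%) and above for 31 (2.01%), while the shares were 8.92% and 11.5% for protein-coding genes. The medians of the single libraries did not overlap between the groups in any of the 4 classes. For TEC genes the WT libraries had -0.05, -0.01 and 0.06 and the KO libraries -0.25, -0.29 and -0.36. For antisense genes the WT libraries had -0.08, -0.01 and 0.09 and the KO libraries -0.24, -0.25 and -0.26. Processed pseudogenes had a median of -0.03, and there the libraries of both groups overlapped.

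**Figure D2:**
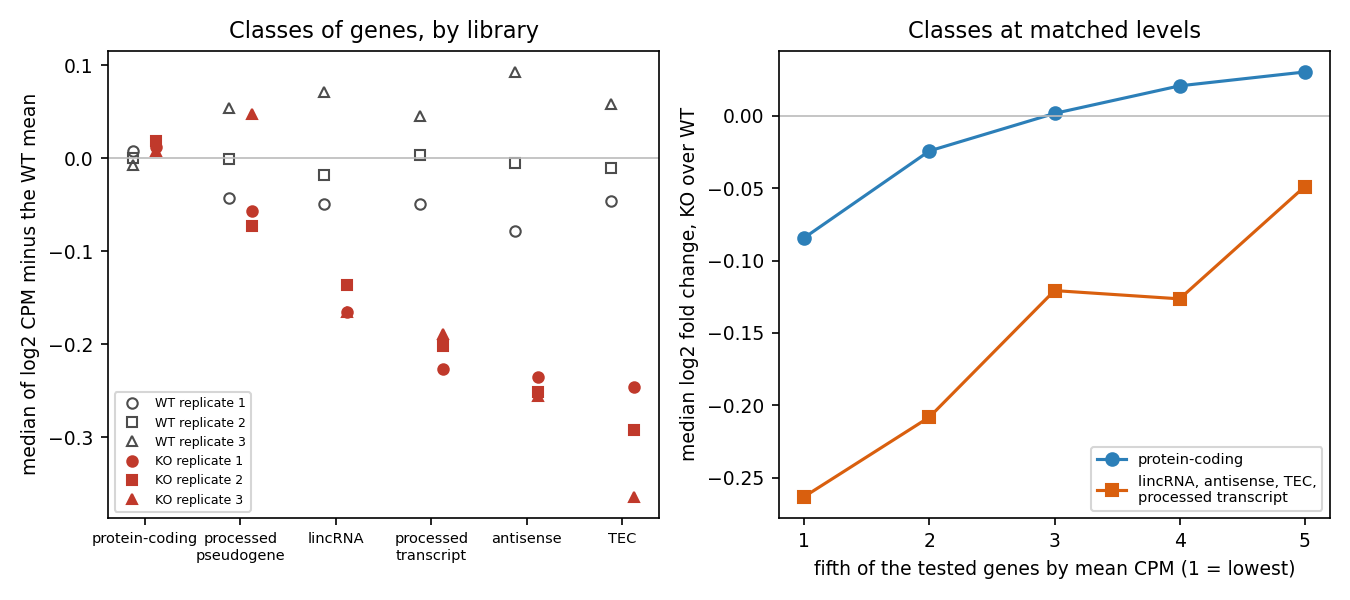
Left, the median over each class of genes of log2 CPM minus the mean of the WT libraries, for each library (open grey WT, filled red KO, shape the replicate), with KO below WT for lincRNA, processed transcript, antisense and TEC genes and overlapping for processed pseudogenes. Right, the median log2 fold change of protein-coding genes (circles) and of the 4 non-coding classes together (squares) in 5 groups of the tested genes, of equal size and ordered by mean CPM, with the non-coding line lower in each group.

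Non-coding genes are weakly expressed, so they were set beside protein-coding genes in the same range of levels. The tested genes were cut into 5 groups of equal size by mean CPM, and levels within a group were not matched further. In the lowest group the 1049 non-coding genes had a median log2 fold change of -0.26 and the 1865 protein-coding genes of -0.08. In the next group the medians were -0.21 (n = 396) and -0.02 (n = 2642), and in the middle group -0.12 (n = 66) and 0.00 (n = 3177). Over these 3 groups the median of both kinds of genes was lowest in the lowest group. Protein-coding genes of the highest group had a median of 0.03 with 16.9% wholly above WT and 7.13% wholly below. The highest 2 groups held 16 and 13 non-coding genes, too few to describe. Leaving out each library in turn kept the medians between -0.39 and -0.31 for TEC, between -0.33 and -0.24 for antisense, between -0.23 and -0.20 for processed transcripts and between -0.21 and -0.13 for lincRNA genes. These values without 1 library were computed after the class medians were seen. Counting ignored strand, so that reads counted for an antisense gene may come from the opposite strand. Reads in exons shared by an antisense gene and its sense partner could not be assigned. The share of counts on mitochondrial genes was lower in every KO library as well, and its part in these medians was not tested.

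Genes of the stroma and the vessels were on balance higher in KO, by amounts that rested in part on 1 library. The median log2 fold change was 0.27 for 22 fibroblast and stromal genes, 0.29 for 16 collagens, 0.20 for 36 other matrix proteins, 0.22 for 16 enzymes that modify and cross-link matrix, 0.36 for 10 pericyte genes, 0.11 for 16 contractile genes of smooth muscle and 0.20 for 27 endothelial genes. Of these lists only the pericyte list held a gene that passed after adjustment, *Anpep*. Without KO replicate 2 the medians were 0.16, 0.05, 0.05, 0.14, 0.15, 0.03 and 0.11. The collagens show this most: their median difference from the WT mean was 0.25, -0.09 and -0.14 in the WT libraries and 0.12, 0.69 and 0.04 in the KO libraries, so that WT replicate 1 lay above both KO replicates 1 and 3. Of the 16 collagens 1 lay wholly above WT and none below, beside 10.04% and 10.4% of all genes. The groups also overlapped in this measure for fibroblast, other matrix and smooth muscle genes. There WT replicate 1 had 0.064, 0.148 and 0.068, and KO replicate 1 had 0.060, 0.105 and 0.046. The fibroblast list summed to 5648 to 6642 CPM in WT and 5597 to 6268 CPM in KO. For the pericyte list the values were 0.03, 0.03 and -0.02 in the WT libraries and 0.22, 0.47 and 0.21 in the KO libraries, with all KO libraries above all WT libraries.

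Among lists of other cells, decidual genes summed to 3999 to 5401 CPM in WT and 3489.9 to 3922 CPM in KO. This sum was led by 1 gene, *Prl8a2*, the decidual prolactin-related gene, with 2217, 2212 and 3517 CPM in the WT libraries and 1651, 1831 and 1984 CPM in the KO libraries, and the median log2 fold change of the list was 0.05. Labyrinth trophoblast genes summed to 15784 to 16845 CPM in WT and 14204 to 15916 CPM in KO, an overlap of the groups. The part of tissue makeup in the stromal and vascular values was not tested. Single members showed both patterns. *Col1a1*, the main chain of fibrillar collagen, had 94.3, 66.1 and 68.2 CPM in the WT libraries and 84.2, 164 and 83.9 CPM in the KO libraries, which is an overlap of the groups (log2 fold change 0.54, edgeR adjusted p = 0.38). *Fn1*, fibronectin, had 5502, 5121 and 5064 CPM in the WT libraries and 6739, 8559 and 5606 CPM in the KO libraries (log2 fold change 0.41, edgeR adjusted p = 0.323), where KO replicate 2 was highest. For other genes all KO libraries lay above WT by a like amount. *Pdgfra*, the receptor that marks fibroblasts, had 429, 451 and 437 CPM in the WT libraries and 560.0, 566 and 541 CPM in the KO libraries (log2 fold change 0.34, edgeR adjusted p = 0.118). *Loxl2*, a lysyl oxidase, had 30.8, 26.3 and 29.1 CPM in the WT libraries and 36.7, 44.3 and 38.4 CPM in the KO libraries (log2 fold change 0.47, edgeR adjusted p = 0.118). Its relative *Lox* lay in the other direction, with 138, 109.8 and 107 CPM in the WT libraries and 87.9, 95.9 and 95.01 CPM in the KO libraries (log2 fold change -0.35, edgeR adjusted p = 0.201). Of the 16 enzymes of matrix, 8 were higher and 1 lower at an unadjusted p-value under 0.05, beside 6.46% and 7.08% of all genes, and 6 had all KO libraries above all WT libraries and 1 below, beside 10.04% and 10.4% of all genes.

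Among smooth muscle genes, 5 of 16 were higher at an unadjusted p-value under 0.05 and none was lower, beside 6.46% of all genes. *Cnn1*, calponin, had 2.56, 3.43 and 2.91 CPM in the WT libraries and 4.82, 5.62 and 5.72 CPM in the KO libraries (log2 fold change 0.86, edgeR adjusted p = 0.0838). *Actg2*, the enteric smooth muscle actin, had 8.42, 9.38 and 8.78 CPM in the WT libraries and 12.7, 17.2 and 12.7 CPM in the KO libraries (log2 fold change 0.68, edgeR adjusted p = 0.118). The groups did not overlap for either, nor for *Myh11*, the myosin of smooth muscle, and *Acta2*, its actin, while *Des* and *Cald1*, the most abundant of the list, had log2 fold changes of 0.05 and -0.05 (edgeR adjusted p = 0.878 and 0.812). Of 27 endothelial genes 24 were higher, 9 at an unadjusted p-value under 0.05 (6.46% of all genes), and 7 had all KO libraries above all WT libraries, where 10.04% of all genes did. *Pecam1*, an adhesion molecule of endothelium, had 229, 224 and 216 CPM in the WT libraries and 254, 302 and 254 CPM in the KO libraries (log2 fold change 0.27, edgeR adjusted p = 0.221). *Clec14a*, a lectin of endothelium, had 70.3, 77.1 and 66.7 CPM in the WT libraries and 86.2, 85.3 and 80.7 CPM in the KO libraries (log2 fold change 0.24, edgeR adjusted p = 0.207). The endothelial transcription factor *Erg* had 14.3, 14.3 and 13.4 CPM in the WT libraries and 17.7, 16.9 and 15.6 CPM in the KO libraries (log2 fold change 0.25, edgeR adjusted p = 0.254). *Flt1*, which the trophoblast expresses as well, overlapped between the groups. Without KO replicate 2 the endothelial list had 5 genes higher and 1 lower at that p-value, beside 5.13% and 5.95% of all genes in that fit. The share of protein-coding genes wholly above WT rose with level, to 14.3% and 16.9% in the highest 2 groups by mean CPM. In these groups 6.74% and 7.13% lay wholly below. Some lists of other functions had like shares. Wholly above WT were 8 of 28 sterol and fatty acid synthesis genes and 8 of 34 endoplasmic reticulum genes, with none below. Of 80 ribosomal protein genes none was above and 4 were below.

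**Figure D3:**
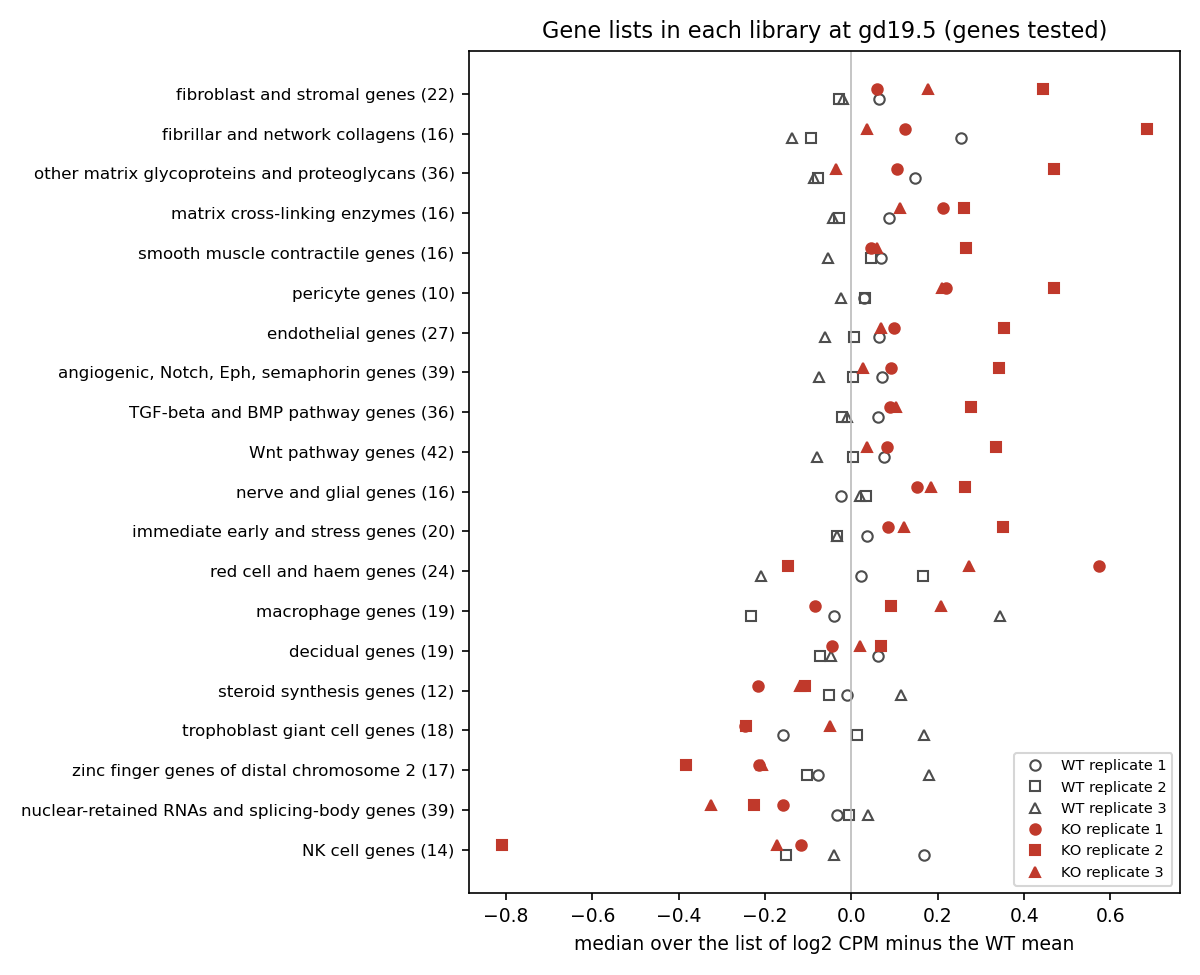
For 20 gene lists, the median over the list of log2 CPM minus the mean of the WT libraries, in each library (open grey WT, filled red KO, shape the replicate, number of tested genes in brackets). KO replicate 2 (filled square) stands to the right of the other KO libraries in the stromal, matrix and vascular lists, while the nuclear-retained and the distal chromosome 2 zinc finger lists have all 3 KO libraries to the left of WT.

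Signalling genes that act in stroma and vessels were mostly higher. In the list of ligands, receptors, antagonists and transducers of TGF-beta and BMP, which govern matrix production, 30 of 36 genes were higher, 13 higher and 2 lower at an unadjusted p-value under 0.05 (6.46% and 7.08% of all genes), and 15 had all KO libraries above all WT libraries and 2 below (10.04% and 10.4% of all genes), with a median of 0.17 (0.12 without KO replicate 2). Of its transducers, *Smad3* had 70.6, 78.7 and 74.5 CPM in the WT libraries and 97.9, 107 and 96.4 CPM in the KO libraries (log2 fold change 0.43, edgeR adjusted p = 0.0684). The inhibitor *Smad6* had 22.6, 22.0 and 23.9 CPM in the WT libraries and 27.6, 28.3 and 26.6 CPM in the KO libraries (log2 fold change 0.27, edgeR adjusted p = 0.187). The target *Id3* had 40.7, 46.4 and 38.9 CPM in the WT libraries and 52.5, 61.6 and 56.9 CPM in the KO libraries (log2 fold change 0.44, edgeR adjusted p = 0.118). None of the list passed after adjustment. The Wnt list had a median of 0.19 (0.09 without KO replicate 2) with 11 of 42 higher and 1 lower at an unadjusted p-value under 0.05, beside the same 6.46% and 7.08%. The lower one, *Sfrp4*, a secreted Wnt antagonist of the uterus, had 89.8, 67.1 and 69.4 CPM in the WT libraries and 43.6, 24.2 and 47.6 CPM in the KO libraries (log2 fold change -0.97, edgeR adjusted p = 0.142). Insulin-like growth factor genes had a median of 0.22 and Hedgehog genes of 0.16 (0.11 and 0.11 without KO replicate 2). At that p-value 4 of 14 and 4 of 13 were higher, beside 6.46% of all genes, and none was lower. In the Wnt, insulin-like growth factor and Hedgehog lists the medians of the single libraries overlapped between the groups. There KO replicate 3 had median differences from the WT mean of 0.04, 0.06 and 0.10, and WT replicate 1 of 0.08, 0.08 and 0.15.

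Genes of nerve and glia, some of which stromal cells and epithelia share, summed to 213 to 215 CPM in WT and 256 to 333 CPM in KO. Their median difference from the WT mean was -0.02, 0.03 and 0.02 in the WT libraries and 0.15, 0.26 and 0.18 in the KO libraries, and 6 of 16 were higher at an unadjusted p-value under 0.05, beside 6.46% of all genes, and none lower. All KO libraries were above all WT libraries for 6 of the 16 and below for 2, beside 10.04% and 10.4% of all genes. *Syt11*, a vesicle protein, had 20.1, 21.1 and 25.2 CPM in the WT libraries and 28.3, 50.6 and 35.9 CPM in the KO libraries (log2 fold change 0.80, edgeR adjusted p = 0.153). *Nes*, nestin, had 20.9, 19.6 and 21.2 CPM in the WT libraries and 25.7, 38.1 and 28.9 CPM in the KO libraries (log2 fold change 0.59, edgeR adjusted p = 0.142). Immediate early and heat shock genes, which respond to handling of tissue as well as to signals, were higher for 18 of 20, 8 of them with all KO libraries above all WT libraries (10.04% of all genes), and had a median of 0.16. Their median difference from the WT mean was 0.04, -0.03 and -0.03 in the WT libraries and 0.08, 0.35 and 0.12 in the KO libraries, highest in KO replicate 2, and without that library the median log2 fold change was 0.11. *Hspa1b*, an inducible chaperone, had 10.51, 8.91 and 10.7 CPM in the WT libraries and 15.4, 17.0 and 14.3 CPM in the KO libraries (log2 fold change 0.63, edgeR adjusted p = 0.075). The transcription factor gene *Junb* had 30.7, 29.4 and 31.2 CPM in the WT libraries and 36.4, 43.6 and 40.7 CPM in the KO libraries (log2 fold change 0.40, edgeR adjusted p = 0.118).

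NK cell genes were lower in most members, but none passed after adjustment and some lay in the other direction. The list had a median log2 fold change of -0.37 and median differences from the WT mean of 0.17, -0.15 and -0.04 in the WT libraries and -0.12, -0.81 and -0.17 in the KO libraries, and 12 of 14 tested genes were lower. At an unadjusted p-value under 0.05 stood 3 lower and 2 higher (7.08% and 6.46% of all genes), and 3 had all KO libraries below all WT libraries and 2 above (10.4% and 10.04%). *Il2rb*, the neighbour of *C1qtnf6* described above, was 1 of the 2 higher genes, with a mean of 50.7 CPM in WT and 59.7 CPM in KO. *Gzmb*, granzyme B of the cytotoxic granule, had 7.53, 6.28 and 6.28 CPM in the WT libraries and 5.49, 4.00 and 4.44 CPM in the KO libraries (log2 fold change -0.53, edgeR adjusted p = 0.202). *Prf1*, the pore protein perforin, had 12.4, 9.16 and 9.53 CPM in the WT libraries and 9.14, 4.82 and 7.30 CPM in the KO libraries (log2 fold change -0.56, edgeR adjusted p = 0.309). Neither overlapped between the groups, but for *Prf1* the highest KO library (9.14 CPM) lay only just under the lowest WT library (9.16 CPM). Of the 28 listed genes 14 were too low to be tested, the NK receptor genes *Ncr1* and *Klrb1c* among them. Without KO replicate 2 the median was -0.16, and without WT replicate 1 it was -0.21. Lists of macrophages (median -0.0033, 19 genes), T and B cells (-0.07, 12 genes) and neutrophil granules (-0.17, 12 genes) had at most 1 gene at an unadjusted p-value under 0.05. Decidual genes split, with 11 of 19 higher and 8 lower and a median of 0.05. At an unadjusted p-value under 0.05 stood 2 higher and 5 lower, beside 6.46% and 7.08% of all genes. None had all KO libraries above all WT libraries and 5 had them below, beside 10.04% and 10.4%. Of these 5, *Tdo2*, tryptophan dioxygenase, had 14.6, 17.9 and 14.4 CPM in the WT libraries and 5.91, 12 and 7.33 CPM in the KO libraries (log2 fold change -0.89, edgeR adjusted p = 0.171). *Prl8a2* was another of them (log2 fold change -0.54, edgeR adjusted p = 0.262).

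In the trophoblast, the lists of the labyrinth (median 0.01), of the spongiotrophoblast and glycogen cells (-0.08) and of nutrient transporters (0.02) lay near 0. KO replicate 2 stood apart in the spongiotrophoblast list, with a median difference from the WT mean of -0.39. KO replicates 1 and 3 had -0.01 and 0.07. Giant cell genes had a median of -0.22, 16 of 18 lower (51.7% of all genes were), *C1qtnf6* itself among them, and of -0.14 without KO replicate 2. *Tfrc*, the transferrin receptor through which the placenta takes up iron, had 2417, 2412 and 1769 CPM in the WT libraries and 1462, 1551 and 995 CPM in the KO libraries (log2 fold change -0.72, edgeR adjusted p = 0.178). The haemoglobin gene *Hba-a1* had 760.4, 868 and 697 CPM in the WT libraries and 1954, 666 and 1452 CPM in the KO libraries (log2 fold change 0.81, edgeR adjusted p = 0.304), where KO replicate 2 lay below WT. *Hba-a1* has a near-identical copy, so that its count is uncertain. The red cell list had the same order of KO libraries, with median differences from the WT mean of 0.02, 0.17 and -0.21 in the WT libraries and 0.57, -0.15 and 0.27 in the KO libraries. Without KO replicate 2 its median log2 fold change was 0.31 in place of 0.16, and 5 of its 24 genes were higher with an edgeR adjusted p-value under 0.05, where with all libraries none was. Of all 17713 genes tested in that fit, 16 passed, 7 of them higher. The library left out there was the KO library with the lowest red cell median. Of 12 steroid synthesis genes 11 were lower, with a median of -0.16 (-0.26 without KO replicate 2). *Cyp11a1*, the first enzyme of steroid synthesis, had 218, 178 and 201 CPM in the WT libraries and 150.3, 174 and 159 CPM in the KO libraries (log2 fold change -0.30, edgeR adjusted p = 0.204). Subunits of oxidative phosphorylation (76 genes, median -0.04), cytosolic ribosomal proteins (80 genes, -0.10), cell cycle genes (42 genes, 0.03) and interferon-stimulated genes (24 genes, 0.09) held no gene that passed.

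Several of the largest differences between groups that did not overlap failed the test after adjustment. *Tmem178*, an endoplasmic reticulum protein that restrains osteoclasts, had 2.52, 3.03 and 3.49 CPM in the WT libraries and 5.66, 10.8 and 8.84 CPM in the KO libraries (log2 fold change 1.49, edgeR adjusted p = 0.0635). *Hmcn1*, a giant matrix protein, had 3.84, 3.87 and 3.74 CPM in the WT libraries and 5.70, 13.5 and 7.69 CPM in the KO libraries (log2 fold change 1.24, edgeR adjusted p = 0.142). *C1s1*, a protease of complement, had 26.8, 27.2 and 44.6 CPM in the WT libraries and 45.1, 93.3 and 65.5 CPM in the KO libraries (log2 fold change 1.05, edgeR adjusted p = 0.171). KO replicate 2 was highest in all 3, and also in *Mdk*. *Mdk*, the growth factor midkine, had 13.9, 12.4 and 10.2 CPM in the WT libraries and 16.2, 30.9 and 25.4 CPM in the KO libraries (log2 fold change 0.99, edgeR adjusted p = 0.121). On the lower side stood *Ceacam9*, a trophoblast adhesion molecule, with 3.34, 5.15 and 3.58 CPM in the WT libraries and 1.93, 1.59 and 0.493 CPM in the KO libraries (log2 fold change -1.62, edgeR adjusted p = 0.144). *Cyp11b1*, a steroid hydroxylase, had 2.48, 2.04 and 2.66 CPM in the WT libraries and 1.13, 0.991 and 1.12 CPM in the KO libraries (log2 fold change -1.15, edgeR adjusted p = 0.0685).

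The effect of the deletion at gd19.5 was set against the mean effect at gd10.5, gd14.5 and gd16.5 in one fit of all 24 libraries. None of 19299 genes had an adjusted p-value under 0.05 for this difference in edgeR (smallest adjusted p = 0.322), 1457 (7.55%) had an unadjusted p-value under 0.05, and DESeq2 called 11. At gd10.5, gd14.5 and gd16.5, in that order, *Lrrn4* had log2 fold changes of -0.04, -0.04 and 0.57, *Chrdl1* of -0.02, -0.07 and -0.37, *Zfp970* of 0.12, 0.08 and -0.12, *Malat1* of 0.07, -0.05 and 0.28 and *Neat1* of -0.33, 0.11 and 0.41. The lists of fibroblast, smooth muscle, pericyte and endothelial genes had their lowest medians at gd16.5 and their highest at gd19.5, the last depending on KO replicate 2 for smooth muscle. The fibroblast list had medians of 0.11, -0.03, -0.30 and 0.27 from gd10.5 to gd19.5, the smooth muscle list of 0.05, -0.04, -0.35 and 0.11 (0.03 at gd19.5 without KO replicate 2, below gd10.5), and the endothelial list of -0.01, -0.01, -0.29 and 0.20. Non-coding classes ran the opposite way, with TEC genes at -0.11, 0.06, 0.34 and -0.35 and antisense genes at -0.08, 0.02, 0.23 and -0.29, while protein-coding genes stayed between -0.01 and 0.02.

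**Figure D4:**
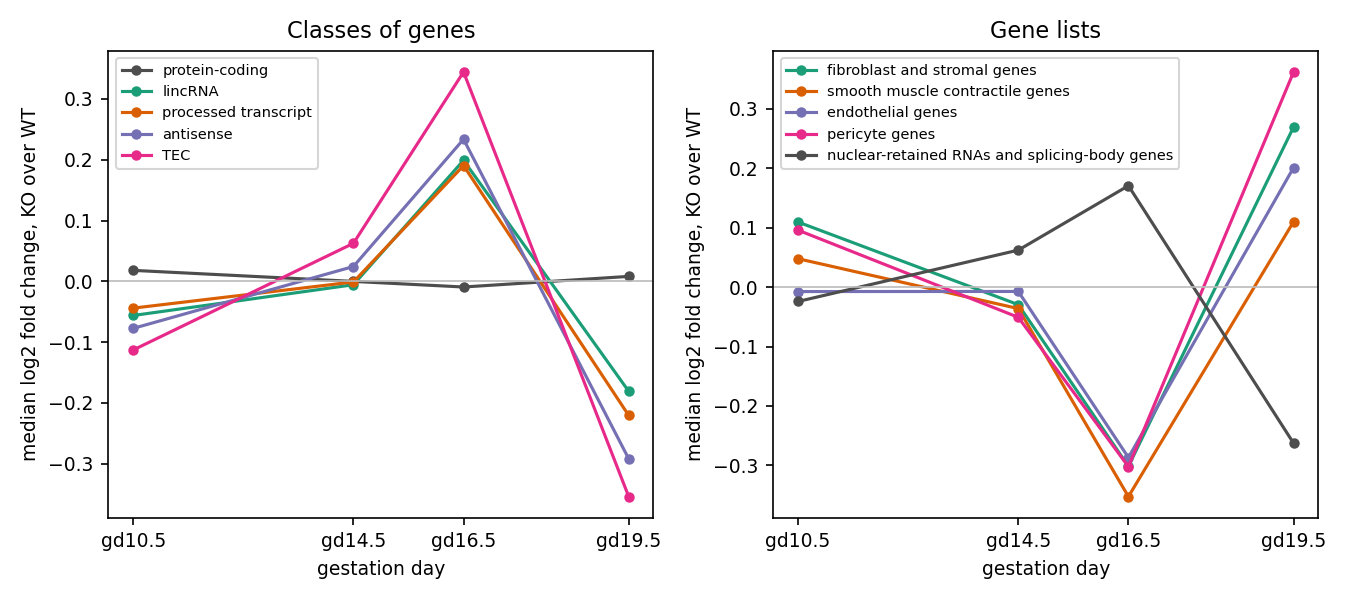
Median log2 fold change of KO over WT at each gestation day, for classes of genes (left) and gene lists (right), with 3 KO and 3 WT libraries per day. Each median covers those genes tested at gd19.5 that were also tested at that day. The non-coding classes and the nuclear-retained list are highest at gd16.5 and lowest at gd19.5, and the stromal, pericyte, smooth muscle and endothelial lists are lowest at gd16.5 and highest at gd19.5, where the smooth muscle median falls to 0.03 without KO replicate 2.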

How the data were processed

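RNA of the maternal-fetal interface was sequenced as stranded poly(A) libraries, and the authors trimmed the reads with Trim Galore (version 0.6.4), aligned them to GRCm38 with STAR (version 2.7.3a) and counted them per gene with featureCounts of Subread (version 2.0.0). The deposited values were raw counts of 55401 genes in 24 libraries. Counting used default settings, which ignore strand and leave out reads that fit several places or the exons of several genes.

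For the 6 libraries of gd19.5, genes were filtered with filterByExpr (minimum count 10, minimum total 15), scaled by TMM and tested with the quasi-likelihood test of edgeR (version 4.0.16, R 4.3.3), two-sided, with Benjamini-Hochberg adjustment. CPM values and list sums are on the TMM-scaled library size, and the limit of detection and the sums of Y-linked genes on the library total. List sums cover all listed genes in the table, tested or not. Depth was 24303850 to 30991315 counts, where 3 counts are 0.0968 to 0.123 CPM, which covers counting error only. The stage difference was a contrast in one edgeR fit of 24 libraries. DESeq2 (version 1.42.0) and limma voom (version 3.58.1) were alternatives. On data simulated from the gd19.5 libraries, 182 of 200 genes with a log2 fold change of 1 were recovered with 9 false calls among 17151 genes.

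Groups followed the labels, and replicate numbers the descriptions of the libraries, which differ from the numbers in the KO titles. The rule for named genes took *C1qtnf6*, every gene with an adjusted p-value under 0.05, the 10 largest rises and falls at an unadjusted p-value under 0.05 with a mean of at least 1 CPM and no overlap, up to 5 members of each list with the smallest p-value and 2 with the highest CPM, and the 10 most abundant genes. Other genes in the text (neighbours, overlapping genes and further markers) were chosen after their values were seen. The comparison, gene lists and rules were chosen with earlier results of these data known. Stretches before start sites came from RefSeq (GRCm38.p6). Some single genes are not reported here.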

Additional observations from a re-analysis of the deposited data

Results flagged for a closer look

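For 4 gene lists the 3 KO libraries lay wholly on one side of WT at gd19.5 and wholly on the other side at gd16.5. The values are medians over the list and the KO libraries of log2(CPM + 0.5), with CPM per library total, minus the WT mean. Pericyte genes had 0.17 at gd19.5 and -0.34 at gd16.5. Zinc finger genes of distal chromosome 2 had -0.23 at gd19.5 and 0.0891 at gd16.5. Steroid synthesis genes had -0.15 at gd19.5 and 0.0348 at gd16.5. Genes of labour and hormone receptors had 0.0505 at gd19.5 and -0.0983 at gd16.5. The difference between the days was not tested for the lists.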

How the results depend on the processing

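The numbers of genes called depended on the fit, and so did the balance of higher and lower genes. At an adjusted p-value under 0.05 stood 5 higher and 15 lower genes at first. With DESeq2 these were 123 and 80 on 6 libraries and 22 and 9 on 24, and with no expression filter 358 and 317. More genes were lower with the replicate block (28 and 42) and with limma voom (18 and 23). Genes that met both limits, on the adjusted p-value and on the fold change, numbered 4 at first, 82 with no expression filter, 1 with all 24 libraries, 9 with the replicate block, 1 with the Y-linked covariate, 18 with DESeq2 on 6 libraries, 9 with DESeq2 on 24, and 8 at an adjusted p-value under 0.1. Genes with an adjusted p-value under 0.05 numbered 20 at first, 675 with no filter, 1 with all 24 libraries, 70 with the replicate block, 4 with the Y-linked covariate, 203 with DESeq2 on 6 libraries, 31 with DESeq2 on 24 and 41 with limma voom. With 1 library left out they ranged from 1 to 16, and the first count from 1 to 7. Genes with an unadjusted p-value under 0.05 numbered 1519 with all 24 libraries, and 1803 to 2254 with 1 library left out. Groups that did not overlap, 3552 genes, numbered 5041 to 5684 with 1 library left out, since fewer libraries separate more easily. The stage difference had 11 calls with DESeq2 and 0 with edgeR. The cause of these changes was not tested otherwise.

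Same-numbered WT and KO libraries had correlations of their deviations of 0.147, 0.0713 and 0.161, so the numbers were not taken as pairs, although each library correlated best with its own number. The replicate block gave 70 calls in place of 20.

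Among genes with a value in the report, the sign turned for *Afp* (-0.50 to 0.11 with 1 library left out, positive without WT replicate 3), *Des* (-0.036 to 0.14, negative without WT replicate 2 or KO replicate 2) and *Rac2* (-0.29 to 0.14, positive without WT replicate 3 or KO replicate 2, and 0.098 with limma voom). None of these genes passed the test. List medians moved by more than the spread between replicates in 20 values, 6 of them without KO replicate 2, and by less in 745. The spread came from the same libraries, so that a library that stood apart, such as KO replicate 2, also widened the limit. The 745 values therefore do not show that a list median was independent of that library.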
